A study of Mus musculus with 8 samples.

Results

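The MYC and MAD-MAX network was followed on 8 mouse arrays through a set of 8 genes chosen by name: Mycn, Myc, Max, Mxd1, Mxd3, Mxd4, Mxi1 and Mnt. Each gene was taken from the transcript cluster annotated with its symbol alone, and 7 of the 8 were found in this way, each on 1 transcript cluster, among 14351 distinct symbols. Mxi1 was not matched to such a cluster and is not analysed here. The set and the gene lists below were chosen with earlier results of these data known. Their shares set beside those of all transcript clusters are therefore descriptive only. Medulloblastomas (n = 4) came from adult mice with the genotype RosaGli1-FLAG c/c;Math1-Cre;Ptc+/-, and were taken as tumour tissue. Gli1-FLAG GNPs (n = 2), granule neuron precursors purified from the cerebellum at postnatal day 8, came from crosses of RosaGli1-FLAG c/c with Math1Cre mice. Ptc+/- GNPs (n = 2) were purified at the same age from Ptc+/- mice. Math1-Cre limits the FLAG-tagged Gli1 to cells of the Math1 (Atoh1) lineage, and tumours and Ptc+/- GNPs share the targeted Ptch1 allele. Age, the purification step and the joint presence of both alterations differ between tumours and GNPs, and their parts in any difference below cannot be told apart.

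MYC proteins are transcription factors that bind DNA at E-boxes only as a dimer with MAX, and they raise genes of growth, ribosome production and cell division. MAX also pairs with the MXD proteins (MXD1, MXI1, MXD3, MXD4) and with MNT, which bring SIN3 and histone deacetylases to the same sites and repress. In the cerebellum Mycn is the MYC gene that Sonic hedgehog induces in dividing granule neuron precursors, and mouse hedgehog-driven medulloblastoma depends on it.

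The start-site regions of Mycn and Mnt are shown because both genes rose in tumours and their windows hold the motifs described here. Each is the 250 bases before a transcription start in RefSeq (GRCm38.p6), read 5′ to 3′ on the gene's strand, at chr12:12941837-12942086 on the minus strand for Mycn and chr11:74830674-74830923 on the plus strand for Mnt. Capitals mark TTTGGCGC, an E2F-type motif, in Mycn and CACGTG, the E-box bound by MAX dimers, in Mnt.
Mycn: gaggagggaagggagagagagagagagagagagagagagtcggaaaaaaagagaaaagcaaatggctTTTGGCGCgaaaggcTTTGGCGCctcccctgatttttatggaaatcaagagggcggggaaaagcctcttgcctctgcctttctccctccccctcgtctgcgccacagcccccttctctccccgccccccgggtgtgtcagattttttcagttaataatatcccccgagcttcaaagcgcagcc
Mnt: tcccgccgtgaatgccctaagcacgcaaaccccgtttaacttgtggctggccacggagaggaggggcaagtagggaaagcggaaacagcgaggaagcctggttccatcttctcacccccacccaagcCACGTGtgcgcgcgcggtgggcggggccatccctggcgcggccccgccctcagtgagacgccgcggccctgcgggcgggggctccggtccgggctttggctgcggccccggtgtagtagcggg

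RefSeq start-site windows, 250 bases before and 50 after the start, were found for 7 of the 8 genes, in 9 windows, of which Mxi1 has 3. The gene without a window is Myc, whose start-site region was not searched. The E-box CACGTG, which reads the same on both strands, stood in 3 of them, those of Max, Mxd4 and Mnt, against 7.15% of 32851 windows of all genes. It lay at position -123 in Mnt, at -219 in Mxd4 and at -3 in Max, where it spans the start. The GLI motif GACCACCCA, searched on both strands, was found in 0 of the 9 windows and in 0.253% of all. The E2F-type letters TTTGGCGC were searched after the Mycn window had been seen. They occurred at positions -183 and -168 of Mycn without overlap. Of all windows 0.514% held at least 1 match on either strand, while 2 windows, 0.00609%, held 2 or more, that of Mycn among them. Because the letters were picked from the Mycn window, these shares do not measure how unusual that window is. A match describes the letters in a window and is not evidence of binding.

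Transcript levels are given as log2(intensity + 1) after quantile normalization, which gives all arrays the same distribution, so that 1 unit is a doubling, somewhat understated for dim transcripts. Deposited median intensities ran from 109 to 310 per array. The first principal component, with 45.3% of the variance, had all tumours on one side and all GNPs on the other. The median SD between replicates over all transcript clusters was 0.299 for the tumours, 0.0899 for Gli1-FLAG GNPs and 0.140 for Ptc+/- GNPs, so tumours varied most. Over the 7 network genes it was 0.160 for the tumours, 0.0612 for Gli1-FLAG GNPs and 0.300 for Ptc+/- GNPs, so here the Ptc+/- GNPs varied most. Gli1, the transgene's own gene, stood at 10.58, 10.42, 10.52 and 10.90 in tumours, at 10.08 and 10.19 in Gli1-FLAG GNPs, against 9.24 and 9.38 in Ptc+/- GNPs. Ptch1, where it is not known whether the probes lie in the targeted stretch, ran between 9.78 and 10.50 in tumours and between 10.05 and 10.12 in Gli1-FLAG GNPs, against 9.98 and 9.99 in Ptc+/- GNPs. Atoh1, a defining gene of granule precursors, lay between 10.84 and 11.99 in tumours and between 9.03 and 9.43 in GNPs, well above the 4.12 to 4.55 at which the Y-linked Eif2s3y stood on its 3 lowest arrays.

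In the comparison that the study names, medulloblastomas against Ptc+/- GNPs, the MYC genes Mycn and Myc and the MAX-bound repressor Mnt rose. Mycn was 1.73-fold, Myc 2.59-fold and Mnt 1.62-fold higher in tumours. Max, Mxd1, Mxd3 and Mxd4 did not pass the threshold. Thus 3 of the 7 measured genes passed an adjusted p of 0.05 in limma, all higher, where 16.5% of all 16317 transcript clusters passed, 7.54% as higher and 8.92% as lower. The median log2 difference of the 7 genes was 0.49 and that of all clusters 0.01. The background depended on single arrays. It was 2687 clusters with all arrays, but 128 without Ptc+/- GNP 1, 460 without Ptc+/- GNP 2, 1231 and 1227 without Gli1-FLAG GNP 1 and 2, and 1751 without tumour 1. Of the 2687, 1231 were higher and 1456 lower, whereas 1713 were higher and 1352 lower when arrays were centred on their medians. In bulk RNA fewer cells of a type and less RNA per cell cannot be told apart, here and in every comparison below.

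**Figure D1:**
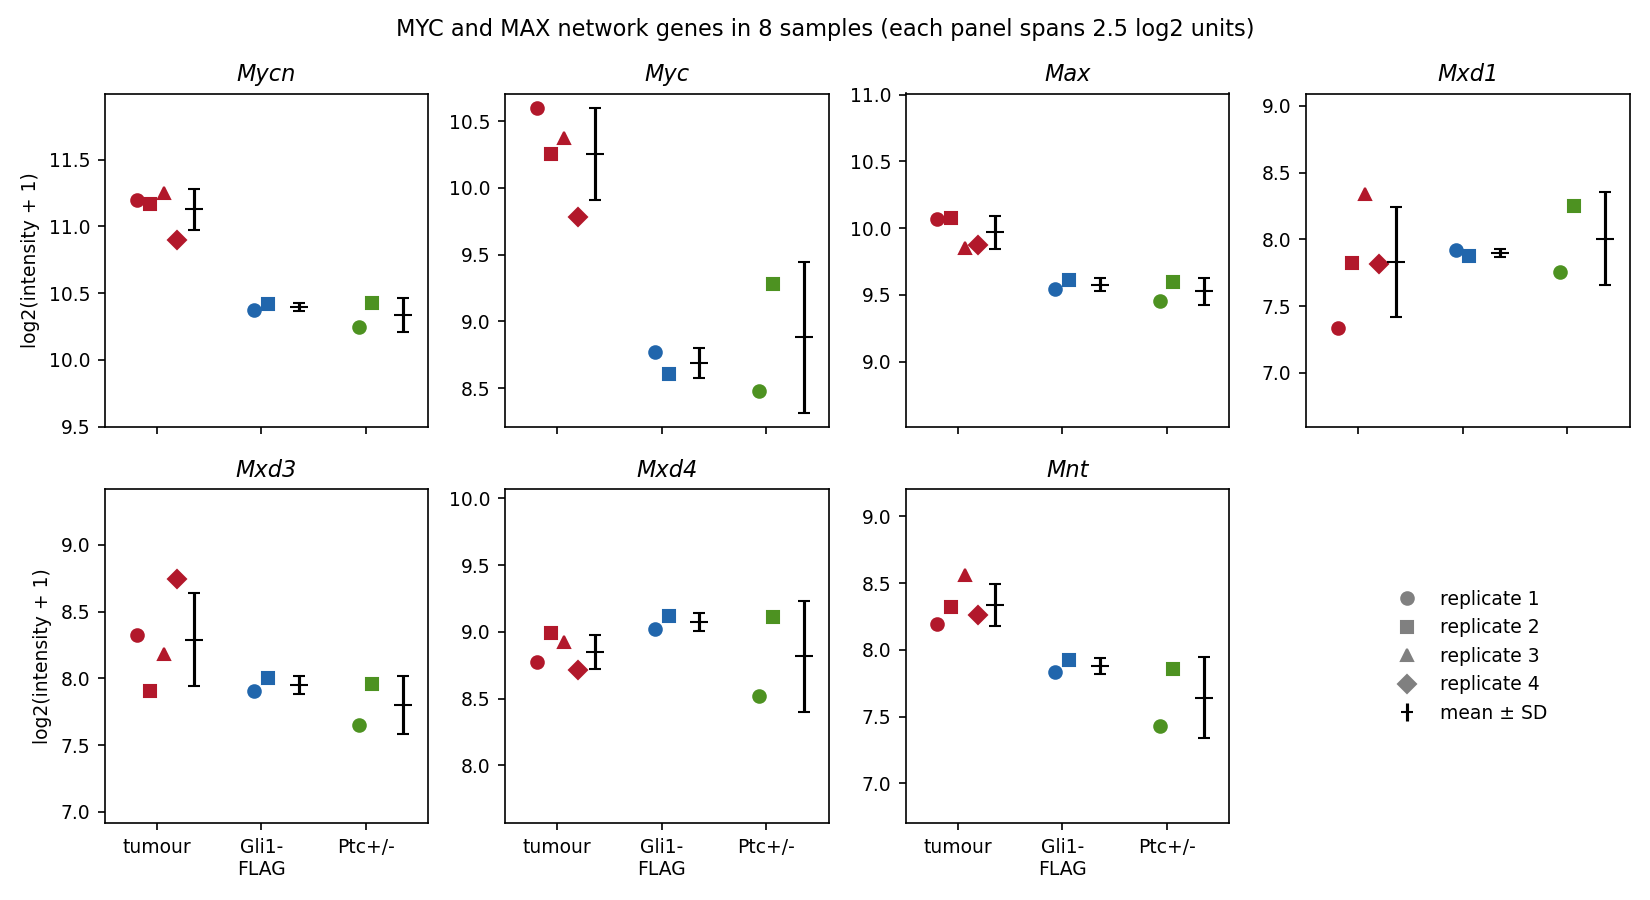
Levels of the 7 measured genes on each of the 8 arrays, as log2(intensity + 1) after quantile normalization; points are arrays, with a marker per replicate number, and black bars the mean ± SD of a group, with medulloblastomas left of Gli1-FLAG GNPs and Ptc+/- GNPs, and each panel has its own range. Mycn, Myc, Max and Mnt have all 4 tumours above all 4 GNP arrays, while Mxd1, Mxd3 and Mxd4 overlap.

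Mycn encodes N-MYC. Its deposited intensities were 2747, 2060, 1934 and 3340 in tumours, 930 and 877 in Gli1-FLAG GNPs, against 1800 and 1047 in Ptc+/- GNPs. After normalization the levels were 11.19, 11.17, 11.25 and 10.90 in tumours, 10.37 and 10.42 in Gli1-FLAG GNPs, against 10.24 and 10.42 in Ptc+/- GNPs. No GNP array reached the lowest tumour, and the lowest tumour lay 0.47 log2 units (1.39-fold) above the highest GNP array. Tumours averaged 11.13 ± 0.16 (SD, n = 4) and Ptc+/- GNPs 10.33 ± 0.13 (SD, n = 2). The log2 difference was 0.79 ± 0.16 (SE), with a 95% interval of 0.43 to 1.15 and an adjusted p of 0.0183 in limma. The call was lost without Ptc+/- GNP 1 (0.73, adjusted p = 0.151 in limma) and without Ptc+/- GNP 2 (0.89, adjusted p = 0.0743). By its rank within an array Mycn stood at the 98.1 ± 0.50 percentile in tumours, 94.6 ± 0.23 in Gli1-FLAG GNPs and 94.1 ± 0.99 in Ptc+/- GNPs (SD, n = 4, 2 and 2), so it was among the brighter transcripts in all 3 groups.

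Myc encodes c-MYC, which acts through the same partner and sites. Its levels were 10.60, 10.26, 10.37 and 9.78 in tumours, 8.77 and 8.61 in Gli1-FLAG GNPs, against 8.48 and 9.28 in Ptc+/- GNPs. The tumours did not overlap with any GNP array, although tumour 4 was the lowest of the tumours and Ptc+/- GNP 2 lay 0.50 below it. Means were 10.25 ± 0.35 in tumours (SD, n = 4) and 8.88 ± 0.56 in Ptc+/- GNPs (SD, n = 2). Myc was higher by 1.37 ± 0.29 log2 units (SE, 95% interval 0.69 to 2.05, adjusted p = 0.0226 in limma). The difference was 1.00 without Ptc+/- GNP 1 (adjusted p = 0.176 in limma) and 1.77 without Ptc+/- GNP 2 (adjusted p = 0.0473), and it just missed the threshold without Gli1-FLAG GNP 1 (0.0502) or 2 (0.0503). Within an array Myc ranked at the 93.0 ± 3.26 percentile in tumours, 69.6 ± 2.17 in Gli1-FLAG GNPs and 73.2 ± 10.5 in Ptc+/- GNPs.

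The gap between the MYC genes narrowed in tumours. Mycn minus Myc on the same array was 0.60, 0.91, 0.88 and 1.12 log2 units in tumours, 1.61 and 1.81 in Gli1-FLAG GNPs, against 1.76 and 1.15 in Ptc+/- GNPs. All tumours lay below all GNP arrays, with tumour 4 and Ptc+/- GNP 2 nearly touching. The mean was 0.88 ± 0.21 in tumours and 1.58 ± 0.30 over the 4 GNP arrays (SD, n = 4 each), a difference of -0.71 with a two-sided exact permutation p of 0.0286, the smallest that 4 against 4 arrays allow. It compares unequal change of both genes, not their amounts, since the probes differ. The exact p was 0.0571 with median-centred arrays (-0.63), with cyclic loess (-0.72) and without any 1 tumour (-0.80 to -0.62).

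**Figure D2:**
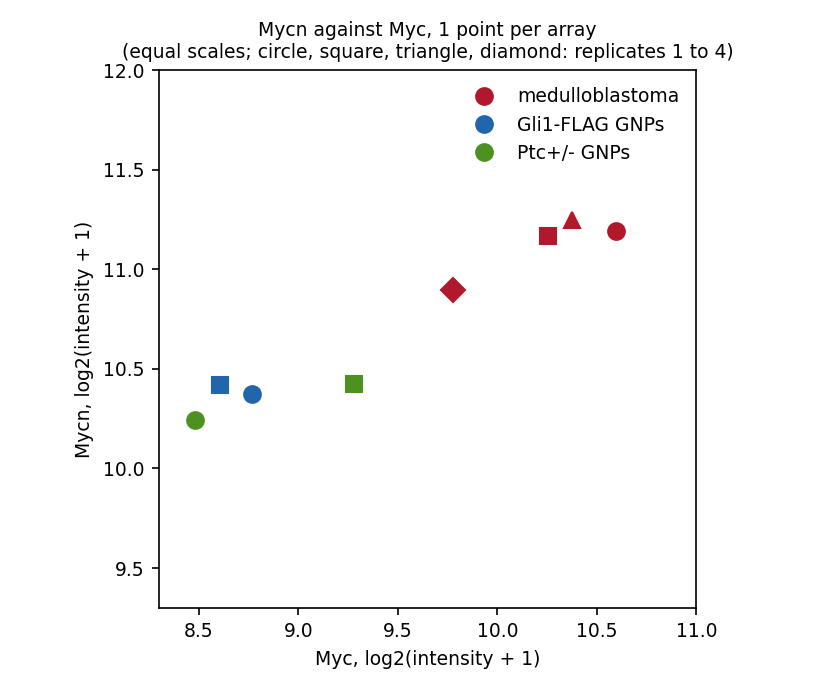
Mycn level (vertical) against Myc level (horizontal) on each of the 8 arrays, both in log2(intensity + 1) at equal scales, with colour for group and marker shape for replicate number. The 4 tumours sit at the upper right, from 10.90 upward in Mycn and from 9.78 upward in Myc, apart from the 4 GNP arrays.

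Max encodes the shared partner with which MYC, MXD and MNT proteins bind DNA. It stood at 10.07, 10.08, 9.85 and 9.88 in tumours, 9.54 and 9.61 in Gli1-FLAG GNPs, against 9.46 and 9.60 in Ptc+/- GNPs. Every tumour lay above every GNP array, by at least 0.24 log2 units, but the difference was small. It was 0.44 ± 0.14 against Ptc+/- GNPs (SE, 95% interval 0.11 to 0.78), and did not pass (adjusted p = 0.0756 in limma). Max passed in limma when the dimmest transcript clusters were left out (adjusted p = 0.0478) and with trend and robust settings (0.0349), while median-centred arrays gave 0.223.

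Mnt encodes a MAX partner that is made in resting and dividing cells alike and opposes MYC at shared sites. Its levels were 8.20, 8.32, 8.56 and 8.26 in tumours, 7.84 and 7.92 in Gli1-FLAG GNPs, against 7.43 and 7.85 in Ptc+/- GNPs. Tumours and GNPs did not overlap, with a gap of 0.27 log2 units. Tumours averaged 8.33 ± 0.16 (SD, n = 4) and Ptc+/- GNPs 7.64 ± 0.30 (SD, n = 2). Mnt was higher by 0.69 ± 0.18 log2 units (SE, 95% interval 0.27 to 1.11, adjusted p = 0.0393 in limma). Of the 3 calls it was the least stable: on leaving out single arrays it was called only without tumour 4 (adjusted p = 0.0479 in limma). Without Ptc+/- GNP 1 it gave 0.48 and an adjusted p of 0.277, without Ptc+/- GNP 2 0.89 and 0.0743, without Gli1-FLAG GNP 1 or 2 0.0816 and 0.0814, and without tumour 1, 2 or 3 0.0602, 0.0609 and 0.0545. Median-centred arrays (0.0599) or a fit of only both groups compared (0.0811) also lost it.

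The MXD genes, which encode the repressors that replace MYC on MAX as cells stop dividing and differentiate, did not pass in this comparison. Mxd1 had levels of 7.33, 7.83, 8.34 and 7.81 in tumours, 7.92 and 7.87 in Gli1-FLAG GNPs, against 7.76 and 8.25 in Ptc+/- GNPs. Its tumours spanned the whole GNP range, and its log2 difference from Ptc+/- GNPs was -0.18 (95% interval -0.83 to 0.48, adjusted p = 0.702 in limma). Mxd3, which unlike the other MXD genes is known to be expressed in proliferating cells, stood at 8.32, 7.91, 8.18 and 8.75 in tumours, a mean of 7.95 ± 0.07 in Gli1-FLAG GNPs (SD, n = 2), against 7.65 and 7.95 in Ptc+/- GNPs. Tumour 2 lay within the GNP range and the other tumours above it, for a difference of 0.49 (95% interval -0.07 to 1.05, adjusted p = 0.198 in limma). Mxd4 had 8.77, 8.99, 8.92 and 8.72 in tumours, 9.02 and 9.12 in Gli1-FLAG GNPs, against 8.52 and 9.11 in Ptc+/- GNPs. All tumours fell between the Ptc+/- arrays, and the difference was 0.03 (95% interval -0.42 to 0.49, adjusted p = 0.921 in limma). The intervals leave room for changes of either sign in each of these genes.

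Non-overlap of arrays was also counted without a model. Mycn, Myc, Max and Mnt, 4 of the 7 genes, had all 4 tumours above all 4 GNP arrays, where 14.7% of all transcript clusters did. Of the 7 genes, 0 had all tumours below all GNP arrays, where 16.5% of clusters did. Against Ptc+/- GNPs alone 4 of 7 did not overlap, where 42% of clusters did not, so that share is near the background.

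**Figure D3:**
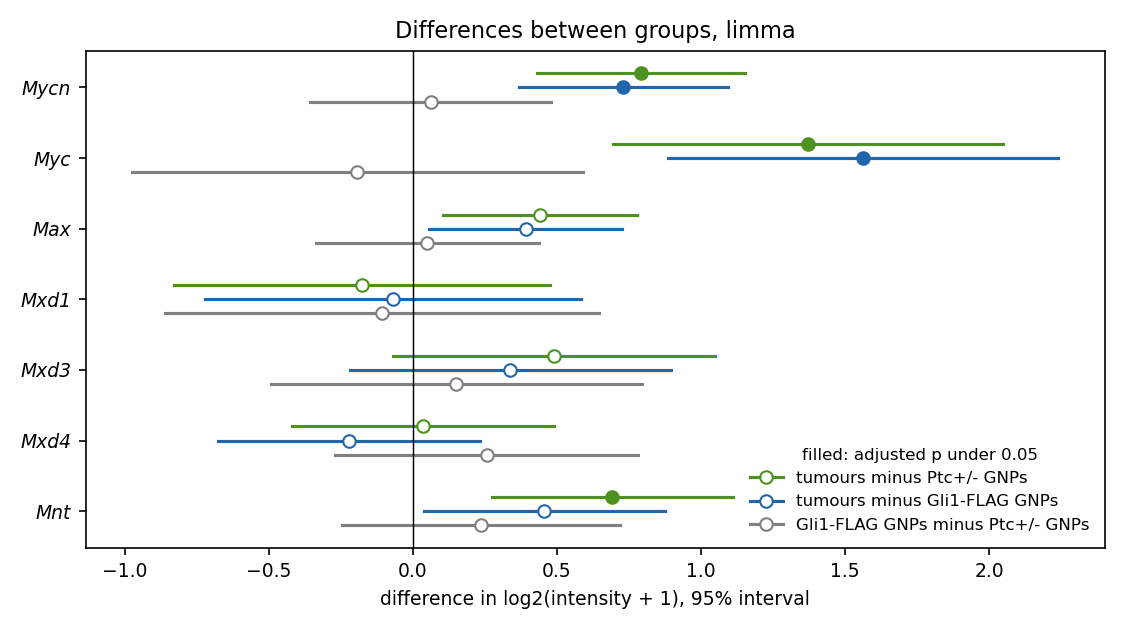
Log2 differences of the 7 genes with 95% intervals from limma for tumours against Ptc+/- GNPs, tumours against Gli1-FLAG GNPs, and Gli1-FLAG GNPs against Ptc+/- GNPs. Filled points pass an adjusted p of 0.05. Mycn and Myc are filled and above 0 in both tumour comparisons, and every interval of the GNP comparison includes 0.

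Set against Gli1-FLAG GNPs, tumours had higher Mycn and Myc. These were 2 of the 7 genes, where 10.3% of transcript clusters passed (1677), 4.65% as higher and 5.63% as lower. That count was 62 and 71 without Gli1-FLAG GNP 1 and 2, 838 and 821 without Ptc+/- GNP 1 and 2, and 802 without tumour 1. The comparison uses the same tumours as the one above, so both are not independent. The Y-linked Eif2s3y stood at 8.97, 8.32, 4.55 and 8.84 in tumours against 4.54 and 4.12 in Gli1-FLAG GNPs (adjusted p = 0.111 in limma). The part of this in the differences of the network genes was not tested. Mycn averaged 11.13 ± 0.16 in tumours (SD, n = 4) and 10.40 ± 0.03 in Gli1-FLAG GNPs (SD, n = 2), a difference of 0.73 ± 0.16 (SE, 95% interval 0.37 to 1.09, 1.66-fold, adjusted p = 0.0313 in limma). With arrays left out in turn, the Mycn call held only without tumour 3 (adjusted p = 0.0444 in limma) or tumour 4 (0.0228). It was lost without Gli1-FLAG GNP 1 (0.25) or 2 (0.199), Ptc+/- GNP 1 (0.0541) or 2 (0.0562), and tumour 1 (0.0681) or 2 (0.0519), and with median-centred arrays (0.095) or only both groups fitted (0.057). Myc averaged 10.25 ± 0.35 in tumours (SD, n = 4) and 8.69 ± 0.11 in Gli1-FLAG GNPs (SD, n = 2), a difference of 1.56 ± 0.29 (SE, 95% interval 0.89 to 2.24, 2.96-fold, adjusted p = 0.0219 in limma). Its call was lost without Gli1-FLAG GNP 1 (0.176) or 2 (0.174) and without tumour 1 (0.0502).

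The other genes did not pass against Gli1-FLAG GNPs. Mnt was at 8.33 ± 0.16 in tumours and 7.88 ± 0.06 in Gli1-FLAG GNPs, a difference of 0.46 (95% interval 0.04 to 0.87, adjusted p = 0.148 in limma). Max differed by 0.39 (95% interval 0.06 to 0.73, adjusted p = 0.127 in limma), with all tumours above both arrays. Mxd4 was the gene with all tumours below both Gli1-FLAG arrays, at -0.22 (95% interval -0.68 to 0.23, adjusted p = 0.49 in limma). Mxd1 differed by -0.07 (95% interval -0.72 to 0.58) and Mxd3 by 0.34 (95% interval -0.22 to 0.90), both overlapping. Arrays did not overlap for 5 of the 7 genes, where 41% of transcript clusters did not.

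Between the GNP groups, Gli1-FLAG against Ptc+/-, 0 of the 7 genes passed in limma, as did 0% of all transcript clusters. At an unadjusted p under 0.05 there were 0 of the 7 genes and 525 clusters, and the alternative limma settings called between 0 and 4 clusters. Mycn differed by 0.06 ± 0.18 log2 units (SE, 95% interval -0.36 to 0.48) and Max by 0.05 (95% interval -0.34 to 0.44). Myc differed by -0.19 ± 0.33 (SE, 95% interval -0.97 to 0.59), and its Ptc+/- arrays enclosed both Gli1-FLAG arrays. Mnt differed by 0.24 (95% interval -0.25 to 0.72), Mxd4 by 0.26 (95% interval -0.27 to 0.78), Mxd3 by 0.15 (95% interval -0.49 to 0.80) and Mxd1 by -0.11 (95% interval -0.86 to 0.65). All 7 genes overlapped between the GNP groups, where 46.3% of transcript clusters did not overlap. With 2 arrays a group these intervals are wide, and differences inside them were not detectable here. The GNP groups also differed in the Y-linked Eif2s3y, at 4.54 and 4.12 in Gli1-FLAG GNPs, against 8.99 and 9.01 in Ptc+/- GNPs, and Kdm5d, at 4.28 and 4.25 in Gli1-FLAG GNPs, against 8.07 and 7.91 in Ptc+/- GNPs. The labels give no sex, and the part of this difference in the values of the network genes was not tested.

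Of the wider MAX and MLX network 8 further genes were listed and all were measured. In tumours against Ptc+/- GNPs 1 of them passed, where 16.5% of all transcript clusters passed. Mlx encodes the MAX-like protein that pairs with MXD1, MXD4, MNT and the glucose-responsive MLXIP and MLXIPL. It stood at 9.20, 8.97, 8.88 and 8.83 in tumours, 8.54 and 8.61 in Gli1-FLAG GNPs, against 8.18 and 8.40 in Ptc+/- GNPs. All tumours lay above all GNP arrays, and Mlx was higher by 0.68 ± 0.16 log2 units against Ptc+/- GNPs (SE, adjusted p = 0.0317 in limma), on all 8 arrays. The call was lost without Ptc+/- GNP 1 (0.2235) or 2 (0.0963), Gli1-FLAG GNP 1 or 2 (0.0712 each) or tumour 1 (0.056), with median-centred arrays (0.0833) and with only both groups fitted (0.071). Mycl, which encodes L-MYC, had 10.54, 10.32, 9.91 and 9.86 in tumours, 9.47 and 9.22 in Gli1-FLAG GNPs, against 9.48 and 9.57 in Ptc+/- GNPs. It too was without overlap, but the difference of 0.63 ± 0.23 did not pass (adjusted p = 0.0974 in limma), nor did the 0.81 against Gli1-FLAG GNPs (0.0628). Mlxipl was dim everywhere, between 3.92 and 4.89, and differed by -0.51 (adjusted p = 0.0899 in limma). Mycs differed by 0.42, Usf2 by 0.24, Mlxip by 0.13, Mga by -0.06 and Usf1 by -0.31 against Ptc+/- GNPs, with adjusted p between 0.323 and 0.865 in limma. Usf1 and Usf2 encode E-box factors that do not pair with MAX. Against Gli1-FLAG GNPs 0 of the 8 passed, where 10.3% of all transcript clusters did.

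Genes known to be bound and raised by MYC or MYCN moved in both directions. Of 35 measured of 40 listed, 7 rose and 2 fell in tumours against Ptc+/- GNPs, with a median log2 difference of 0.09 beside 0.01 for all transcript clusters. Those that passed made up 9 of 35, against the 16.5% of all clusters given above. Of all clusters 7.54% passed as higher and 8.92% as lower. Polr1b, a subunit of RNA polymerase I, stood at 8.62, 8.28, 8.41 and 8.47 in tumours against 7.11 and 7.18 in Ptc+/- GNPs. It was higher by 1.30 (adjusted p = 0.00406 in limma), with every tumour above both. Nop16, a nucleolar protein, was higher by 1.09 (adjusted p = 0.0127 in limma), and Tcof1, which promotes transcription of ribosomal DNA, by 0.84 (adjusted p = 0.0185 in limma). Chosen after their values were seen, Hk2, a glycolytic enzyme, was higher by 2.36 (adjusted p = 0.0205 in limma) and Hspd1, a mitochondrial chaperone, lower at -0.69. Also chosen after their values were seen, some other nucleolar genes of the list had values below 0 and did not pass: Ncl at -0.78 (adjusted p = 0.123 in limma), Ddx18 at -0.51 (0.0616), Nop58 at -0.22 (0.507) and Gnl3 at -0.14 (0.611). They are a selection, and the values of further nucleolar genes of the list are not given here. Without Ptc+/- GNP 1 the list had 0 calls, without Ptc+/- GNP 2 it had 1, without either Gli1-FLAG array 4, and without tumour 1 it had 5. Against Gli1-FLAG GNPs 2 rose and 0 fell (median 0.07), where 4.65% of all clusters passed as higher and 5.63% as lower.

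**Figure D4:**
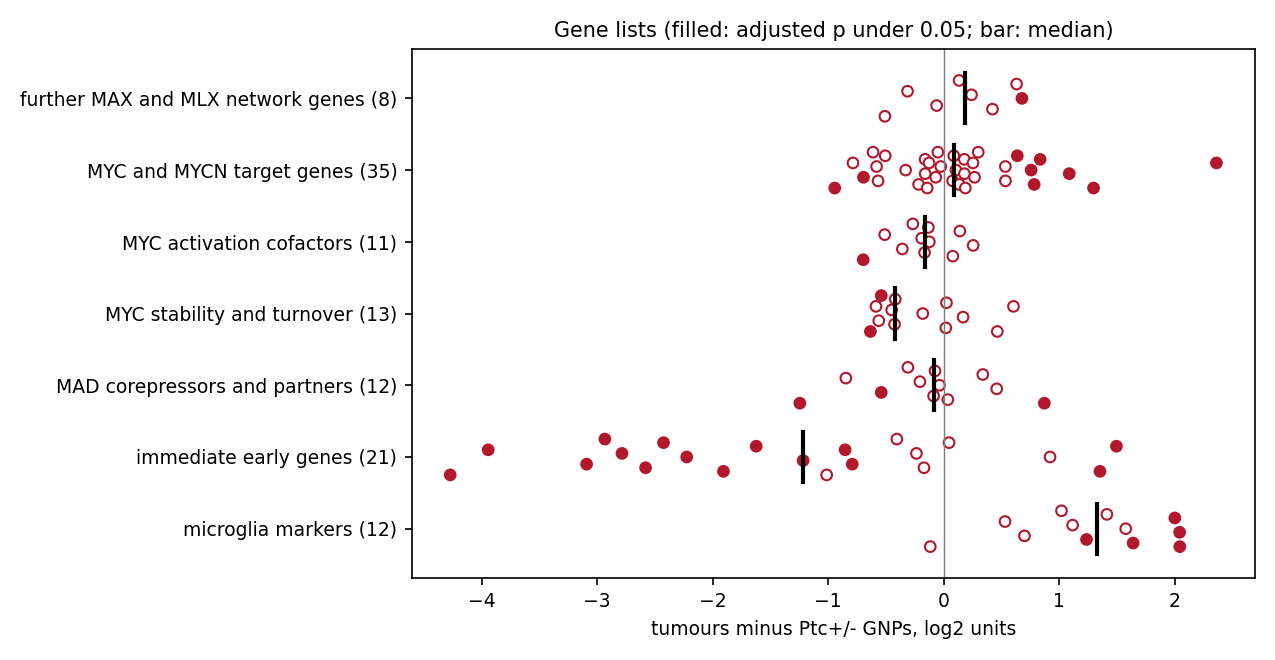
Log2 difference, tumours minus Ptc+/- GNPs, of each measured gene in 7 gene lists; a point is a gene, filled where it passes an adjusted p of 0.05 in limma, a black bar is the median of a list, and the number measured stands beside its name. MYC and MYCN targets lie on both sides of 0 (median 0.09), immediate early genes mostly below (median -1.22) and microglia markers mostly above (median 1.33).

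Among genes that set the stability or the action of these factors, 6 of 36 measured in 3 lists passed against Ptc+/- GNPs, or 16.7%, a share near the 16.5% of all transcript clusters. Of 13 measured genes of MYC stability and turnover 0 rose and 2 fell (median -0.42). Usp7, a deubiquitinase, was lower at -0.63 (adjusted p = 0.0362 in limma), and Usp28, a deubiquitinase that opposes removal of MYC by FBXW7, at -0.54 (adjusted p = 0.0415). The ubiquitin ligase gene Fbxl14 stood at 0.47 (adjusted p = 0.053 in limma) and did not pass. Of 11 activation cofactors 0 rose and 1 fell (median -0.17): Ccnt1, the cyclin of the elongation factor P-TEFb, at -0.70 (adjusted p = 0.0264 in limma). Actl6a (-0.51) and Ep300 (-0.36) did not pass. Of 12 corepressors and partners of the MXD and MNT proteins 1 rose and 2 fell (median -0.08). Arid4a (-1.24, adjusted p = 0.0171 in limma) and the deacetylase Hdac2 (-0.54, adjusted p = 0.039) were lower, and Sap18 (0.87, adjusted p = 0.0406), like them a part of SIN3 complexes, was higher. Without Ptc+/- GNP 1 or 2 these lists had 0 calls, and without either Gli1-FLAG array 1, that of Arid4a. The stability list had 0 calls without tumour 1, 1 without tumour 2 and 4 without tumour 3, the cofactors 1 on leaving out any single tumour, and the corepressors 1, 2, 3 and 1 without tumours 1, 2, 3 and 4. Over these lists Gli1-FLAG GNPs against Ptc+/- GNPs had 0 calls.

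Markers of other cells and of cell handling differed between the same arrays. Their counts against Ptc+/- GNPs stand beside 7.54% of all transcript clusters that passed as higher and 8.92% as lower. Summed microglial markers were at 13.28, 12.64, 12.26 and 13.50 log2 units in tumours against 11.31 to 11.67 in GNPs, and 5 of 12 rose and 0 fell against Ptc+/- GNPs, among them the lysosomal Cd68 (2.04, adjusted p = 0.0104 in limma). Among the tumours, tumour 4, with the most microglial signal, had the lowest Mycn and Myc. Tumour 1, the next in microglial signal, had the highest Myc, and tumour 3, with the least, the highest Mycn. A relation between these levels was not tested. Endothelial markers summed to between 10.07 and 10.22 in tumours and between 10.97 and 12.32 in GNPs, with 0 of 11 higher and 7 lower, among them the receptor gene Kdr (-3.02, adjusted p = 0.00751 in limma). Mature granule neuron markers summed to 12.79, 14.02, 13.03 and 11.73 in tumours and to between 12.39 and 12.54 in GNPs. None passed, 0 of 10 (4 without tumour 4), but their median log2 difference was 0.91 against Ptc+/- GNPs and 0.42 against Gli1-FLAG GNPs. Astrocyte and Bergmann glia markers ran between 9.74 and 12.86 in tumours and between 12.18 and 12.82 in GNPs. Of these 0 of 10 were called, but their median log2 difference was -1.56 against Ptc+/- GNPs and -2.01 against Gli1-FLAG GNPs. Leaving out tumour 2 gave 0 higher and 2 lower against Ptc+/- GNPs, and leaving out tumour 3 gave 2 higher and 1 lower. Aldh1l1 (-2.44), Aqp4 (-2.77) and, chosen after its values were seen, Gdf10 (-2.28) had all tumours below both Ptc+/- arrays without passing (adjusted p of 0.0612, 0.115 and 0.184 in limma). Oligodendrocyte markers ran between 11.32 and 12.61 in tumours and between 11.47 and 12.07 in GNPs, with 3 of 10 higher and 1 lower. The median log2 difference of this list was nevertheless below 0, at -0.66 against Ptc+/- GNPs and -1.51 against Gli1-FLAG GNPs. Granule precursor markers, which include Mycn, ran between 14.36 and 14.90 in tumours and between 14.49 and 14.59 in GNPs, with 5 of 11 higher and 2 lower. These marker calls depended on the Ptc+/- arrays: without Ptc+/- GNP 1 all 6 marker lists had 0 calls, and without Ptc+/- GNP 2 the endothelial list had 7 and the others 0. Without tumour 1 or either Gli1-FLAG array the microglial, endothelial and precursor lists had 3 or 4 calls each. Cd68 had an adjusted p of 0.0965 without Ptc+/- GNP 1 and 0.0681 without Ptc+/- GNP 2 in limma, and Kdr 0.0543 without Ptc+/- GNP 1. Of all these markers 0 stood at an intensity of 0 on any array.

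Immediate early genes, which respond within minutes to stimulation or tissue handling, summed to 12.50 to 12.85 in tumours and 14.07 to 14.29 in GNPs. Of 21 measured, 2 rose and 13 fell against Ptc+/- GNPs (median -1.22), with Atf3 at -3.94, Klf4 at -3.09 and Klf6 at -2.93. Among all transcript clusters 7.54% passed as higher and 8.92% as lower. Without Ptc+/- GNP 1 or 2 the calls of this list were 9 and 8, all lower. Myc is often counted with such genes but was not in this list. What the other cells or the handling contribute to the differences of Mycn, Myc and Mnt was not tested.

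**Figure D5:**
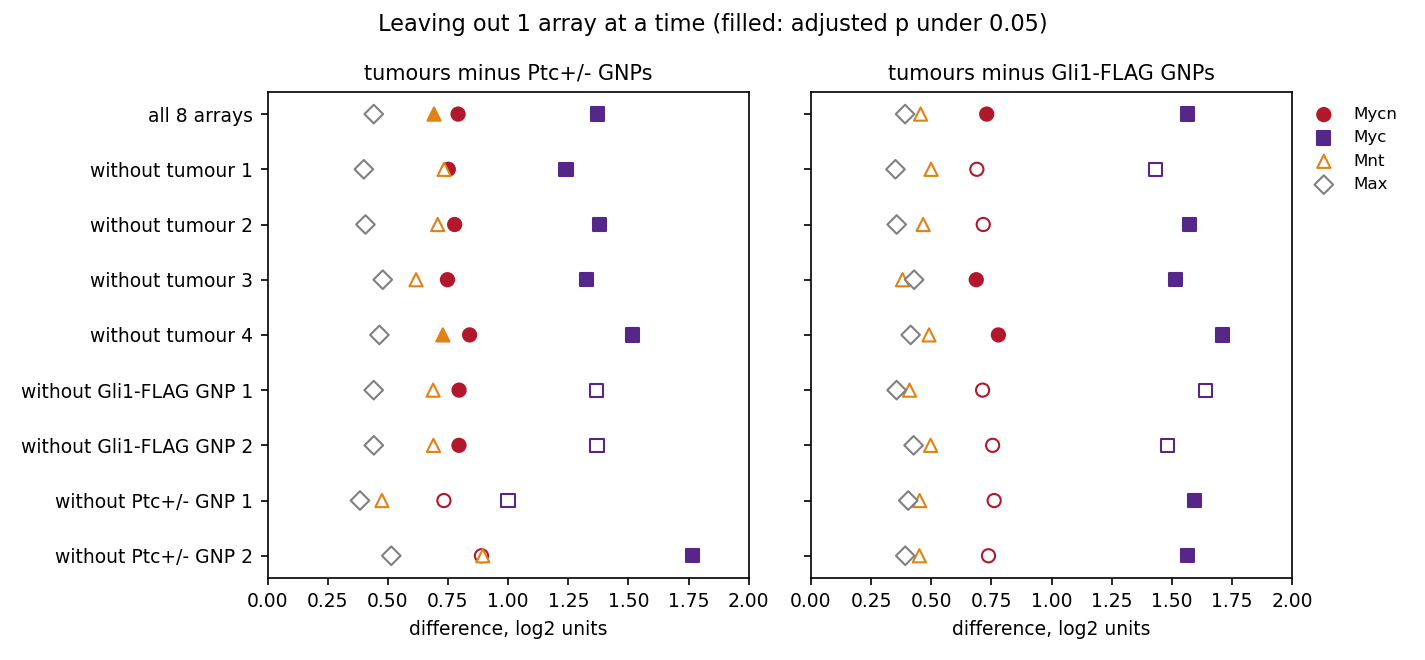
Log2 differences of Mycn, Myc, Mnt and Max in tumours minus Ptc+/- GNPs (left) and tumours minus Gli1-FLAG GNPs (right), with all 8 arrays and with each array left out in turn; filled points pass an adjusted p of 0.05 in limma and open points do not. All values stay above 0, and Mycn and Myc are open without Ptc+/- GNP 1 on the left and without either Gli1-FLAG array on the right.

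The transcripts whose levels followed each called gene most closely over the 8 arrays were found by the root mean square difference of median-centred log2 levels. For Mycn these were Acvr2b, an activin receptor (0.0548 log2 units), Phb2, a prohibitin (0.0715), and Rin1, a RAS effector (0.0832). For Mnt they were Kdsr, an enzyme of ceramide synthesis (0.0787), Atxn2l, a relative of ataxin 2 (0.0897), and Slc22a20, an organic anion transporter (0.0940). For Myc they were St6galnac5, a sialyltransferase (0.230), Rxra, a retinoid receptor (0.238), and Alox8, a lipoxygenase (0.249). The nearest profile to Myc was further from it than those near Mycn and Mnt. This distance is not scaled to a gene's own spread. Over the tumours Myc ranged more widely (0.82 log2 units) than Mycn (0.35) or Mnt (0.37), so the distances do not rank likeness between genes. The arrays share their groups, so any transcript higher in tumours lies near these profiles in part.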

How the data were processed

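RNA of 8 mouse samples was hybridised to Affymetrix whole-transcript arrays after Trizol extraction and ribosomal RNA reduction, per the labels' protocols. The deposited values are linear intensities, as whole numbers for 16317 transcript clusters, made with genome build mm8 per the submitters' processing notes. How background was corrected and probes summarised is not given in the sources used here. Medians differed up to 2.84-fold between arrays. The deposited intensities were therefore taken as not normalized, and were quantile normalized over the 8 arrays with values under 0 set to 0 (1 value), then taken as log2(intensity + 1). Precision is limited by the number of arrays, and without detection calls a dim value may be background.

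Symbols came from the platform annotation: 14551 clusters had 1 symbol, 1146 several and 620 none. The members and gene lists were chosen with earlier results of these data known. Named genes were every member, the wider network, the up to 3 genes of each list with the lowest p in tumours against Ptc+/- GNPs, check genes (Gli1, Ptch1, Eif2s3y, Kdm5d), and the 3 nearest profiles of each called member.

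limma 3.58.1 (R 4.3.3) fitted 3 group means to all arrays, with eBayes (2.45 prior and 5 residual degrees of freedom) and Benjamini-Hochberg adjustment over all clusters at 0.05, two-sided. The fit was tested on simulated data. Mycn minus Myc was compared by an exact permutation test. The labels call replicates biological but nothing says that each came from its own animal, so the spread behind each p-value is that of these samples alone and may be technical. Alternatives were other normalizations, a dim filter, an offset of 16, trend and robust eBayes, array weights, only the groups compared, the replicate number as a block, and each array left out. Start-site sequences are RefSeq's (GRCm38.p6), a build other than that of the arrays, and serve as sequence only. Figures were drawn with matplotlib 3.10.9 in Python 3.11.15.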

Additional observations from a re-analysis of the deposited data

Results flagged for a closer look

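Among 51 named genes examined over the 4 tumours, 3 had 1 tumour far from the others, by a gap above Dixon's critical value for 4 samples, and chance alone gives this in about 1 of 20 groups. None of the 7 measured network genes was among them. Kdr, an endothelial receptor gene, stood at 6.91 in tumour 4, against 6.03 to 6.12 in the other tumours. Atf3, an immediate early gene, stood at 5.06 in tumour 2, against 5.58 to 5.64 in the other tumours. The Y-linked Eif2s3y stood at 4.55 in tumour 3, against 8.32 to 8.97 in the other tumours. Kdm5d, also Y-linked, stood at 4.55 in tumour 3, against 7.39 to 8.01 in the other tumours, and both genes stood at 4.12 to 4.54 in Gli1-FLAG GNPs, against 7.91 to 9.01 in Ptc+/- GNPs.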

How the results depend on the processing

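Over 17 alternatives, 32 called differences of named genes gave 544 values, of which 0 changed sign and 122 missed the threshold. Differences not called gave 797 values, of which 39 passed and 18 changed sign. Against Ptc+/- GNPs, members called were 0 to 3 on leaving out single arrays and 1 with the replicate number as a block, and all clusters called were 128 to 2898, and 1239 with only the groups compared. Against Gli1-FLAG GNPs, members called were 0 to 2 on leaving out single arrays, 1 with median-centred arrays, 1 with only the groups compared and 0 with the replicate block. All clusters called there were 62 to 1980, 3566 with array weights, 832 with only the groups compared and 1066 with the block. Between GNP groups all clusters called were 0 to 4, and 1 with cyclic loess, 1 with trend and robust settings, 3 with array weights, 2 with only the groups compared and 1 with the block. Mycn minus Myc was -0.84 to -0.62 without single arrays, -0.63 with median-centred arrays and -0.72 with cyclic loess, with a p of 0.0571 in both of these and without any 1 tumour. In tumours against Ptc+/- GNPs, Mxd4 was -0.094 with median-centred arrays. On leaving out single arrays Mxd4 gave -0.26 to 0.33, Mxd1 -0.42 to 0.069, Mga -0.19 to 0.074, Mlxip -0.030 to 0.30, Usf1 -0.64 to 0.013 and Usf2 -0.018 to 0.50. Against Gli1-FLAG GNPs, Usf2 was -0.040 with median-centred arrays, Mxd1 gave -0.24 to 0.094 and Mga -0.016 to 0.21. Between GNP groups Mycn gave -0.028 to 0.15, Myc -0.59 to 0.20, Max -0.020 to 0.12, Mxd1 -0.35 to 0.14, Mxd3 -0.0026 to 0.30 and Mxd4 -0.040 to 0.55. Median centring moved the median of all clusters in tumours against Ptc+/- GNPs to 0.13, against 0.01 with quantile normalization. Same-numbered samples did not deviate together (correlations -0.073 to 0.009), so numbers were not taken as pairs, and the block drops tumours 3 and 4. The causes of these changes were not tested.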
